A study of Homo sapiens with 6 samples.

Results

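The MHC class I presentation genes examined here were HLA-B, HLA-C, HLA-E, B2M, TAP1, TAP2, TAPBP, NLRC5 and ERAP2. They were chosen by their function, with earlier results of these data known, and were found by symbol. All 9 were among the 37887 rows of the count table. BT-549 is an established triple-negative breast cancer (TNBC) cell line. RNA-seq was performed on 3 control libraries and 3 shPBRM1 libraries made from poly(A)-selected RNA. The control libraries are titled as a control shRNA and came from cells treated with 0.1% DMSO, and the shPBRM1 libraries are titled as a PBRM1 shRNA and came from cells treated with 500 ng/ml doxycycline (DOX). The series design instead describes 1 line, with a PBRM1 shRNA under a DOX-inducible (tet) promoter, that was given DMSO or DOX. In either reading DOX was given only to the shPBRM1 cells, so that its effect and that of PBRM1 silencing cannot be told apart here. The question was how the transcripts of the class I pathway differ when PBRM1, a subunit of the PBAF chromatin remodeling complex, is silenced.

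MHC class I molecules show peptides from inside the cell to CD8+ T cells and NK cells. Each is a polymorphic heavy chain (such as HLA-B and HLA-C) or a less variable one (HLA-E) bound to β2-microglobulin, the product of B2M. Proteasomes cut proteins into peptides, the TAP1-TAP2 transporter moves the peptides into the endoplasmic reticulum, the aminopeptidases ERAP1 and ERAP2 trim them, and tapasin (TAPBP) holds empty class I molecules at the transporter while peptides are loaded. NLRC5 is the class I transactivator, a coactivator of the heavy chain, B2M and TAP1 promoters. Interferons raise the pathway through STAT factors and factors of the IRF family, the latter of which bind elements with repeats of GAAA.

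In these libraries 8 of the 9 genes were lower in shPBRM1 than in control cells at an adjusted p under 0.05, and 7 of them fell by more than 2-fold. The coactivator NLRC5 fell furthest, to 7.32% of its control level, followed by the transporter subunit TAP1 at 21.3%. HLA-B was at 22.7%, ERAP2 at 32.5%, B2M at 39.0%, HLA-E at 40.4%, TAP2 at 47.2% and HLA-C at 51.1% of control. TAPBP was at 55.9% of control and did not pass the test. By the same rule as for the 7 genes (edgeR's quasi-likelihood test at an adjusted p under 0.05, with a more than 2-fold change), 9.68% of the 15450 tested genes were lower. With no minimum fold change, 33.2% of all tested genes were lower and 31.5% were higher. None of the 9 genes was higher by either rule, where 2.87% of all tested genes were higher by more than 2-fold. The log2 fold changes of the 9 had a median of -1.36, beside -0.01 over all tested genes. Because the 9 were chosen with earlier results known, these shares describe the set and do not test it. All 9 genes passed the filter on low counts.

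Total counts were between 36429395 and 65096297 per library. PBRM1, the targeted gene, had levels of 157, 157 and 161 CPM (counts scaled to the TMM-normalized library size) in the control libraries and of 43.3, 40.9 and 41.7 CPM in the shPBRM1 libraries, a log2 fold change of -1.91 (SE 0.03, adjusted p = 9.98e-23, edgeR). The 5 mesenchymal markers (VIM, CDH2, FN1, ZEB1 and SPARC) summed to between 5399 and 5598 CPM in control and between 4385 and 4655 CPM in shPBRM1 libraries, most of it SPARC. Within that list VIM and CDH2 rose, with log2 fold changes of 0.31 and 0.54, and FN1, ZEB1 and SPARC fell, with -1.33, -0.55 and -0.37. The 5 luminal or epithelial markers (ESR1, PGR, ERBB2, EPCAM and CDH1) summed to between 50.9 and 57.2 CPM, most of it ERBB2, and ESR1 and EPCAM had at most 2 and 8 counts in any library. CDH1 fell from 5.002 ± 0.363 to 1.51 ± 0.313 CPM (SD, n = 3). The 7 leukocyte markers (PTPRC, CD2, CD3E, CD14, LYZ, ITGAM and CD68) summed to between 1.04 and 1.49 CPM in control and between 0.833 and 0.976 CPM in shPBRM1 libraries, with 0 counts of CD2 and CD3E in every library. Within that list PTPRC fell, from 0.797 ± 0.0907 to 0.132 ± 0.0587 CPM (SD, n = 3), and CD14 rose, from 0.331 ± 0.125 to 0.678 ± 0.0735 CPM. The 3 endothelial markers (PECAM1, CDH5 and VWF) summed to between 0.188 and 0.496 CPM in control and between 0.0257 and 0.0941 CPM in shPBRM1 libraries. The part of these markers in the results was not tested. In lysates of whole cultures, less RNA per cell and fewer cells that express a gene cannot be told apart. The labels do not say whether the 3 libraries of a group came from separate experiments, and p-values then do not reach beyond these libraries. The edgeR p-values also draw on the spread of other tested genes and are not a measure of each gene's own spread. For genes with a wider spread than their peers they can be small beside the SE.

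Stretches of DNA before the RefSeq starts of the genes are shown to describe letters that match elements read by interferon-regulated factors. The RefSeq promoter table (GRCh38.p14) had an entry for 7 of the 9 genes, HLA-B, HLA-C, B2M, TAP1, TAP2, TAPBP and ERAP2. The 250 bases before the RefSeq start were searched on both strands for AANNGAAA (the core of IRF elements), TTCNNNGAA (the GAS element of interferon-responsive genes) and CCAAT (the box bound by NF-Y). In the lines that follow, AANNGAAA and CCAAT matches, on either strand, are in capitals. Bases inside the GENCODE v29 span of the gene were left out, and for TAP1 and TAPBP, whose GENCODE spans begin further upstream, 30 bases around the match are given. Each is read 5′ to 3′ toward its gene.
B2M, chr15:44711357-44711486, plus strand: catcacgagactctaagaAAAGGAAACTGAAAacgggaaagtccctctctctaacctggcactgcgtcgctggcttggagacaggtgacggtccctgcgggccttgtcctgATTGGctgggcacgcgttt
TAP1, chr6:32853817-32853846, minus strand: gcggccgcTTTCGATTTCGCTTtcccctaa
TAP2, chr6:32838781-32838899, minus strand: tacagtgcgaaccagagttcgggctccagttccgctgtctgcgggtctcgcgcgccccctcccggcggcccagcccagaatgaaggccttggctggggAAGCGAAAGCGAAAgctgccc
TAPBP, chr6:33314079-33314108, minus strand: ccctttggaggaAAGTGAAAGTGAAAggag
HLA-B, chr6:31357189-31357339, minus strand: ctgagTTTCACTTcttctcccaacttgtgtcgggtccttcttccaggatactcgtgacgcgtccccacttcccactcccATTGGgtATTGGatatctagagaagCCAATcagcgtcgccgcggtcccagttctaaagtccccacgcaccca
HLA-C, chr6:31272131-31272252, minus strand: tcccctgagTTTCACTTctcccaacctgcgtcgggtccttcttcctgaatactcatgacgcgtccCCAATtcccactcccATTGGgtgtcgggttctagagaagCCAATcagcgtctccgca

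B2M, TAP1, TAP2 and TAPBP each held 2 overlapping copies of AANNGAAA, so that the GAAA repeats were spaced as in an interferon-stimulated response element. In B2M they ran from 142 to 129 bases before the start, in TAP1 from 134 to 121, in TAP2 from 62 to 49, and in TAPBP from 18 to 5. HLA-B and HLA-C each held 1 copy, from 155 and 151 bases before the start, on the strand opposite to the gene's, as were both copies in TAP1. In all, 6 of the 7 windows matched AANNGAAA, beside 20.6% of 27305 RefSeq promoter windows of the same length. ERAP2 had no match in its window. TTCNNNGAA matched in 0 of the 7 windows and in 6.78% of all promoters. CCAAT matched in HLA-B, HLA-C, B2M and TAP1, which is 4 of the 7, and in 33.1% of all promoters. These matches describe the letters of the reference and do not show that a factor was bound. The genes with the paired copies ranged from TAP1, which fell to 21.3% of control, to TAPBP, which did not pass the test, and ERAP2 fell to 32.5% with no copy in its window.

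NLRC5, the class I transactivator, lies on chromosome 16 from 56989485 to 57083531 (GENCODE v29, GRCh38). Its levels were 27.8, 26.9 and 26.7 CPM in control replicates 1, 2 and 3 and 1.78, 1.90 and 2.28 CPM in shPBRM1 replicates 1, 2 and 3. The 3 control libraries lay within 1.04-fold of each other, and every shPBRM1 library was far below them. The raw counts behind these levels were 1037, 1309 and 1349 in control and 107, 74 and 145 in shPBRM1 libraries. The log2 fold change was -3.76 (SE 0.10, adjusted p = 3.47e-20, edgeR), more negative than that of any other gene of the 9.

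B2M, the light chain of every class I molecule, lies on chromosome 15 from 44711487 to 44718877. Its levels were 695, 697 and 686 CPM in control and 258, 267 and 285 CPM in shPBRM1 libraries. It was the most abundant of the 9 transcripts and had the smallest spread between libraries. The mean fell from 693 ± 5.84 to 270 ± 13.8 CPM (SD, n = 3), with a log2 fold change of -1.36 (SE 0.04, adjusted p = 4.80e-18).

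TAP1 and TAP2, the subunits of the peptide transporter, lie close together in the MHC on chromosome 6, from 32845209 to 32853978 and from 32821833 to 32838780. PSMB8 lies between them. TAP1 had levels of 133, 138 and 133 CPM in control and of 28.8, 30.3 and 26.9 CPM in shPBRM1 libraries, a log2 fold change of -2.24 (SE 0.05, adjusted p = 1.52e-22). TAP2 had levels of 2.36, 2.10 and 2.003 CPM in control and of 0.900, 1.13 and 1.02 CPM in shPBRM1 libraries, a log2 fold change of -1.09 (SE 0.11, adjusted p = 3.28e-05). Both subunits were lower in every shPBRM1 library than in any control library. Without shPBRM1 replicate 1 the log2 fold change of TAP2 was -0.9995, just short of the 2-fold limit. The TAP2 level rests on 88, 102 and 101 counts in control and 54, 44 and 65 counts in shPBRM1 libraries. In the annotation TAP2 overlaps AL669918.1, which holds 35.5% of the 75-base words of the longest TAP2 transcript, and how reads that fit both genes were assigned is not given in the sources used here. TAP1 overlaps PSMB9, which lies on the opposite strand, and whether reads were counted by strand is not given in the sources used here. The part of these overlaps in the levels was not tested.

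ERAP2, an aminopeptidase of the endoplasmic reticulum, lies on chromosome 5 from 96875939 to 96919716. Its levels were 8.06, 7.92 and 6.82 CPM in control and 1.98, 2.88 and 2.56 CPM in shPBRM1 libraries. The groups did not overlap, and the log2 fold change was -1.63 (SE 0.17, adjusted p = 1.33e-10).

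The heavy chain genes HLA-E, HLA-C and HLA-B were lower on average, but with a much wider spread between libraries. HLA-E, the ligand of the NK cell receptor NKG2A, had levels of 43.7, 47.3 and 27.8 CPM in control and of 14.3, 19.7 and 13.98 CPM in shPBRM1 libraries. The lowest control library was above the highest shPBRM1 library, and the log2 fold change was -1.32 (SE 0.29, adjusted p = 1.03e-08, edgeR). With edgeR's robust estimation of the spread, chosen after seeing the data, the adjusted p of HLA-E was much larger, at 0.0153. HLA-E lies on chromosome 6 from 30489467 to 30494205.

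HLA-C, a classical heavy chain that is also a ligand of killer immunoglobulin-like receptors, had levels of 40.6, 30.5 and 51.1 CPM in control and of 15.2, 30.5 and 16.8 CPM in shPBRM1 libraries. Replicate 2 was at 30.5 CPM in both groups, so that the groups touched, while the other 2 shPBRM1 libraries were below every control library. The log2 fold change of -0.999 (SE 0.38, adjusted p = 2.12e-05) fell just short of the 2-fold limit. With the replicate number as a block it was -1.02 and past that limit. Single libraries left out moved it between -1.34 and -0.80, and past the limit without control replicate 1, control replicate 2 or shPBRM1 replicate 2. With edgeR's robust estimation of the spread, chosen after seeing the data, the adjusted p was 0.0801 and the call was lost; over all alternatives it was between 6.09e-61 and 0.0801.

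HLA-B, a classical heavy chain like HLA-C, was counted at very low levels. Its raw counts were 9, 16 and 45 in control and 15, 2 and 2 in shPBRM1 libraries, and 3 counts correspond to between 0.0471 and 0.0804 CPM in these libraries. The levels were 0.241, 0.329 and 0.892 CPM in control and 0.2499, 0.0514 and 0.0314 CPM in shPBRM1 libraries. The groups overlapped, since shPBRM1 replicate 1 was as high as control replicate 1. The log2 fold change was -2.09 (SE 0.81, adjusted p = 0.00403, edgeR). Without control replicate 3 it was -1.30 and the call was lost (adjusted p = 0.121), and without shPBRM1 replicate 1 it was -3.58. Over all alternatives the adjusted p of HLA-B was between 7.96e-05 and 0.121. The summed counts, 70 in control and 19 in shPBRM1 libraries, gave a ratio of 0.228 after scaling to library size, with an exact 95% interval of 0.129 to 0.382. That interval covers counting error only and treats reads as independent. Among rows with 1 to 20 counts, between 60.9% and 61.8% of the counts in each library were even.

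TAPBP, which encodes tapasin, lies on chromosome 6 from 33299694 to 33314387 and was the 1 gene of the 9 that did not pass the test. Its levels were 15.5, 19.1 and 84.0 CPM in control and 24.8, 31.6 and 9.93 CPM in shPBRM1 libraries. Control replicate 3 was the highest of the 6 libraries and shPBRM1 replicate 3 the lowest, while shPBRM1 replicates 1 and 2 lay above control replicates 1 and 2. The log2 fold change was -0.89 (SE 0.92, adjusted p = 0.0560). Without control replicate 3 it was 0.32 (adjusted p = 0.342). Leaving out control replicate 1, control replicate 2, shPBRM1 replicate 1 or shPBRM1 replicate 2 gave log2 fold changes between -1.26 and -1.0 that passed the test, and leaving out shPBRM1 replicate 3 gave -0.52. Over all alternatives the adjusted p of TAPBP was between 7.16e-50 and 0.482. These libraries give no settled direction for TAPBP.

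**Figure D1:**
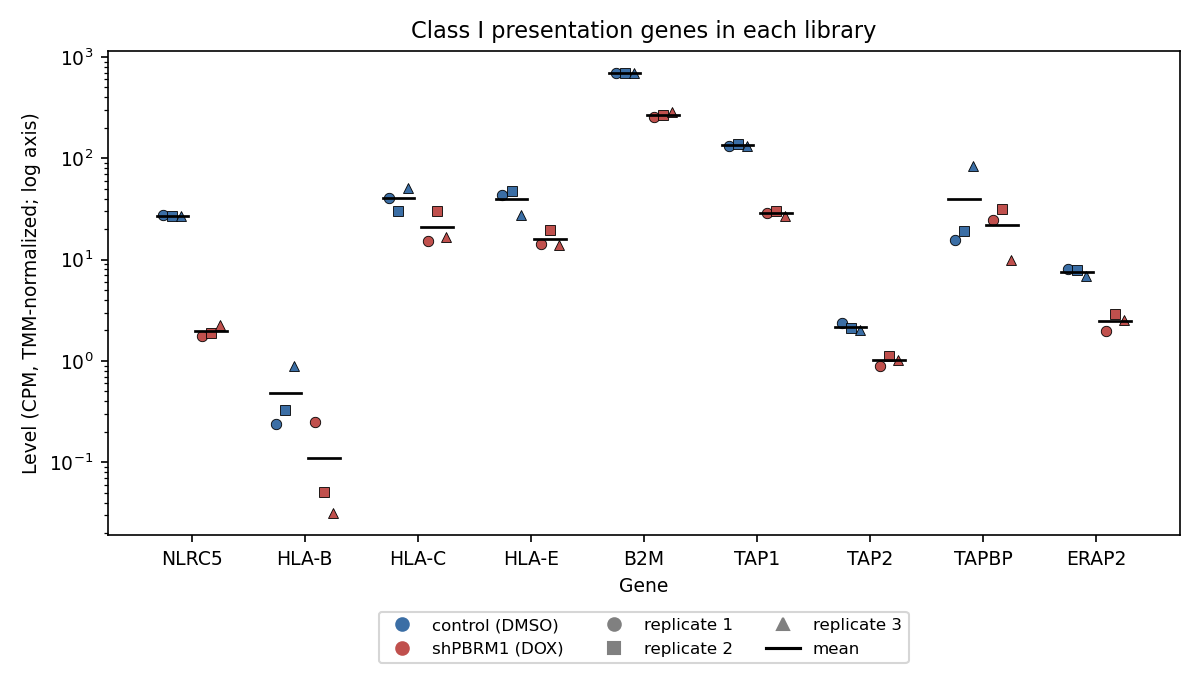
Level of each of the 9 genes in CPM, normalized by TMM, on a log axis, with control libraries in blue and shPBRM1 libraries in red. Each point is 1 library, the shape gives its replicate number, and the black lines are group means. NLRC5, B2M, TAP1, TAP2, ERAP2 and HLA-E show no overlap between the groups, whereas HLA-B, HLA-C and TAPBP overlap.

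In 6 of the 9 genes every shPBRM1 library was below every control library, beside 35.0% of all tested genes. These were NLRC5, B2M, TAP1, TAP2, ERAP2 and HLA-E. The spread between replicates differed widely among the 9 genes. It was measured as the within-group SD of log2 CPM and set against the other tested genes with a mean count within 2-fold. TAPBP, at 1.13, was above 99.95% of 4320 such genes, whose median was 0.0633. HLA-C, at 0.465, was above 99.91% of its 4310 peers, and HLA-E, at 0.352, above 99.72% of 4254. HLA-B, at 0.996, was above 96.7% of 2168 peers, whose median was 0.448. In contrast B2M (0.0524), TAP1 (0.0638), TAP2 (0.1404), NLRC5 (0.128) and ERAP2 (0.213) lay between the 14.7th and the 86.8th percentile of their peers. The 4 genes above the 95th percentile were the 3 heavy chain genes and TAPBP, which all lie on chromosome 6, as do TAP1 and TAP2.

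Reads from class I heavy chain genes can fit more than 1 gene or allele. In the longest reference transcripts, 1.96% of the 75-base words of HLA-C and 2.02% of those of HLA-E also occurred in another gene. For TAPBP the share was 1.55%, and for HLA-B, B2M, NLRC5 and ERAP2 it was 0%. Words were counted only when held by a gene of another symbol, so further copies under the same symbol were not seen. The GENCODE v29 span of HLA-B, from 31269491 to 31357188, includes most of HLA-C, from 31268749 to 31272130. The alleles of BT-549 differ from the reference, and how reads with several matches were treated is not given in the sources used here. The part of read sharing in the levels of HLA-B, HLA-C, HLA-E and TAPBP was not tested.

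**Figure D2:**
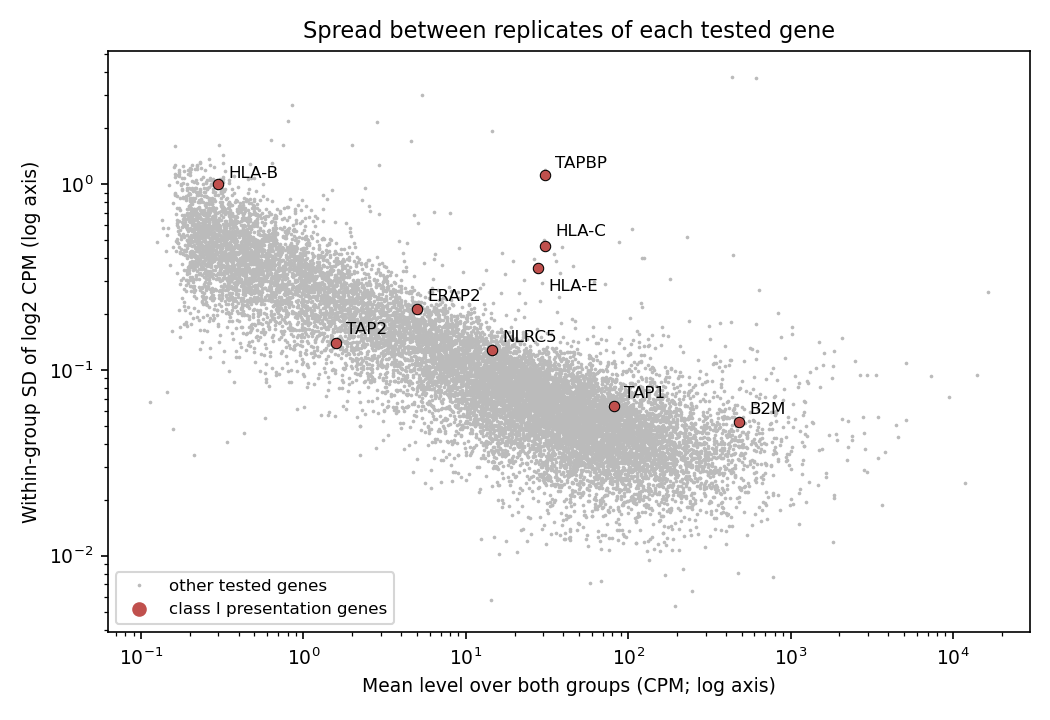
Within-group SD of log2 CPM against the mean level in CPM for all 15450 tested genes, both on log axes, with the 9 class I presentation genes in red and named. TAPBP, HLA-C and HLA-E lie far above genes of like level, at 1.13, 0.465 and 0.352, while B2M and TAP1 lie within the cloud at 0.0524 and 0.0638.

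To compare levels between genes, CPM was divided by the exon length of each gene in kilobases. In control cells the mean was 291 CPM per kb for B2M, 45.5 for TAP1, 26.2 for HLA-C, 15.2 for HLA-E, 9.42 for TAPBP, 3.98 for NLRC5, 1.29 for ERAP2, 0.349 for TAP2 and 0.307 for HLA-B. In that order HLA-E and TAPBP, TAPBP and NLRC5, and TAP2 and HLA-B overlapped between libraries, and the other neighbours did not. In shPBRM1 cells the order was B2M at 114 CPM per kb, HLA-C at 13.4, TAP1 at 9.68, HLA-E at 6.15, TAPBP at 5.26, ERAP2 at 0.420, NLRC5 at 0.291, TAP2 at 0.165 and HLA-B at 0.0699. TAP1 and HLA-C, HLA-E and TAPBP, and TAP2 and HLA-B overlapped there. NLRC5 was thus above ERAP2 per length in every control library and below it in every shPBRM1 library.

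Whether the genes fell by unequal amounts was tested with the log2 ratio of each gene's counts to those of B2M in the same library, which does not depend on library scaling. The ratio of NLRC5 to B2M was -4.64, -4.69 and -4.68 in control and -7.18, -7.13 and -6.97 in shPBRM1 libraries, a difference of -2.42 (SE 0.07; exact two-sided permutation test, p = 0.1). The ratio of TAP1 to B2M fell from -2.36 ± 0.02 to -3.24 ± 0.15 (SD, n = 3; difference -0.87, SE 0.09; exact two-sided permutation test, p = 0.1). The ratio of TAP2 to B2M was higher in shPBRM1 libraries, -8.06 ± 0.15 against -8.33 ± 0.11 (SD, n = 3; difference 0.27, SE 0.11; exact permutation test, p = 0.1). For these 3 genes the groups did not overlap. An exact permutation p of 0.1 is the smallest that 3 libraries against 3 allow, so the test could not pass 0.05, and adjusted over the 8 ratios it was 0.267. ERAP2 differed from B2M by -0.27 (SE 0.16; exact permutation test, p = 0.2) and overlapped. The ratios of HLA-B, HLA-C, HLA-E and TAPBP to B2M overlapped as well, with differences of -1.13 (SE 1.10), 0.35 (SE 0.39), 0.07 (SE 0.29) and 0.80 (SE 0.95).

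**Figure D3:**
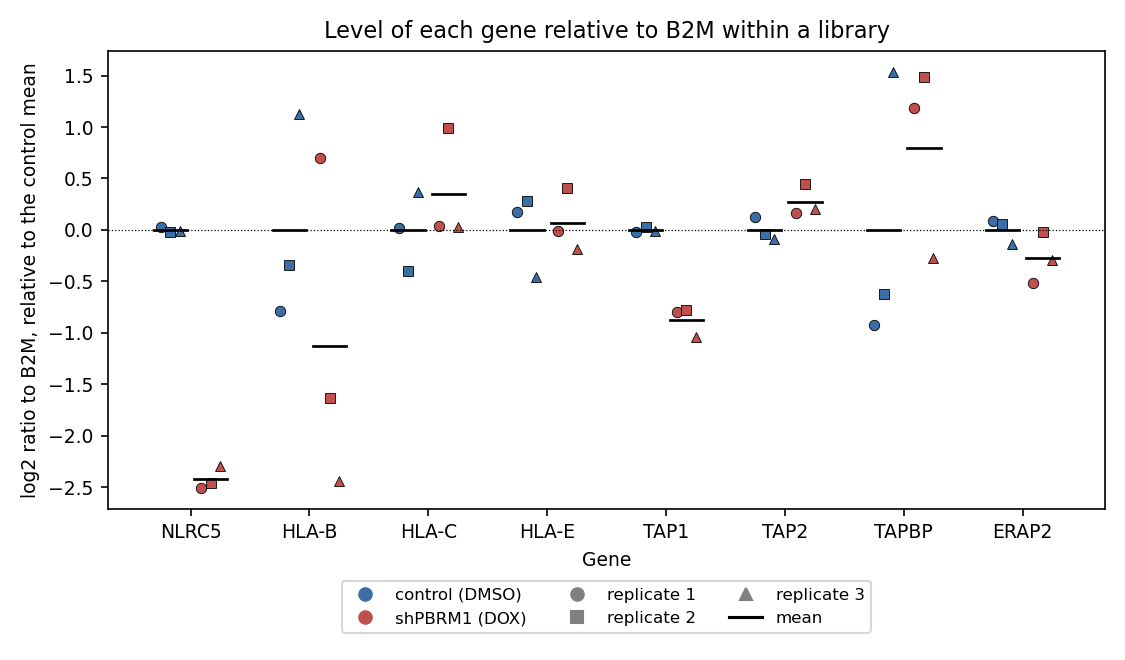
log2 ratio of each gene's counts to those of B2M within a library, drawn relative to the control mean of that gene, with control libraries in blue, shPBRM1 libraries in red, replicate numbers as shapes and group means as black lines. NLRC5 and TAP1 lie below B2M's own change by 2.42 and 0.87 and TAP2 above it by 0.27, whereas the groups overlap for the other 5 genes.

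The tested genes whose profile over the 6 libraries was most like the mean profile of the 9 were S100A1, SNTB1, NR1D1, IL21R and SPRY4-AS1. Likeness was the Euclidean distance between centred log2 CPM values, which was 0.173, 0.267, 0.297, 0.308 and 0.313 for these genes. Their log2 fold changes were -1.80, -1.76, -1.61, -1.53 and -1.68. None of them belongs to the lists of pathway genes used here.

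The rest of the class I pathway was described with a list of 21 further genes, of which 19 were tested. Of these, 10 were lower and 7 higher at an adjusted p under 0.05, and 5 were lower by more than 2-fold. Over all tested genes these shares were 33.2%, 31.5% and 9.68%. The median log2 fold change of the list was -0.22. The 5 genes past the limit were the interferon-inducible proteasome subunits PSMB8, PSMB9 and PSMB10, the tapasin-related peptide editor TAPBPL and the aminopeptidase ERAP1. PSMB9 had levels of 26.6, 27.1 and 28.0 CPM in control and of 3.50, 3.44 and 3.73 CPM in shPBRM1 libraries, a log2 fold change of -2.93 (SE 0.04, adjusted p = 1.79e-19). PSMB10 fell from 8.19 ± 0.794 to 2.43 ± 0.127 CPM (SD, n = 3; log2 fold change -1.75). PSMB8 had levels of 50.9, 25.4 and 48.7 CPM in control and of 11.4, 11.1 and 11.2 CPM in shPBRM1 libraries, with a log2 fold change of -1.89 (SE 0.32, adjusted p = 2.50e-10). TAPBPL fell from 22.8 ± 0.923 to 8.08 ± 0.492 CPM (log2 fold change -1.50).

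ERAP1, the partner of ERAP2 in trimming, fell from 232 ± 2.87 to 115 ± 3.27 CPM (SD, n = 3), or by 1.01 on the log2 scale. The constitutive catalytic subunits that PSMB8, PSMB9 and PSMB10 replace in the immunoproteasome moved the other way. PSMB5 rose by 0.57, PSMB6 by 0.71 and PSMB7 by 0.43 on the log2 scale, with no overlap between the groups. Of the 15450 tested genes, 5141 likewise had every shPBRM1 library above every control library. The proteasome activator subunits PSME1 and PSME2 fell, with log2 fold changes of -0.63 and -0.33. Of the chaperones of the peptide-loading complex and the endoplasmic reticulum, PDIA3 fell by 0.51 and HSPA5 by 0.22, CANX rose by 0.24, and CALR had a log2 fold change of 0.06 (adjusted p = 0.190). The folding sensor UGGT1 rose by 0.38, the aminopeptidase NPEPPS by 0.48 and the activator PSME3 by 0.16, while the peptidase THOP1 fell by 0.24 and LNPEP had a log2 fold change of 0.03 (adjusted p = 0.561).

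HLA-F had 11, 8 and 10 counts in control and 0 counts in every shPBRM1 library. With a chosen floor of 3 counts per library, the control mean of HLA-F was 3.78-fold above the mean floor of the shPBRM1 libraries. That value depends on the floor chosen, and HLA-F did not pass the filter. HLA-G had 1 count over all 6 libraries and was not tested either.

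**Figure D4:**
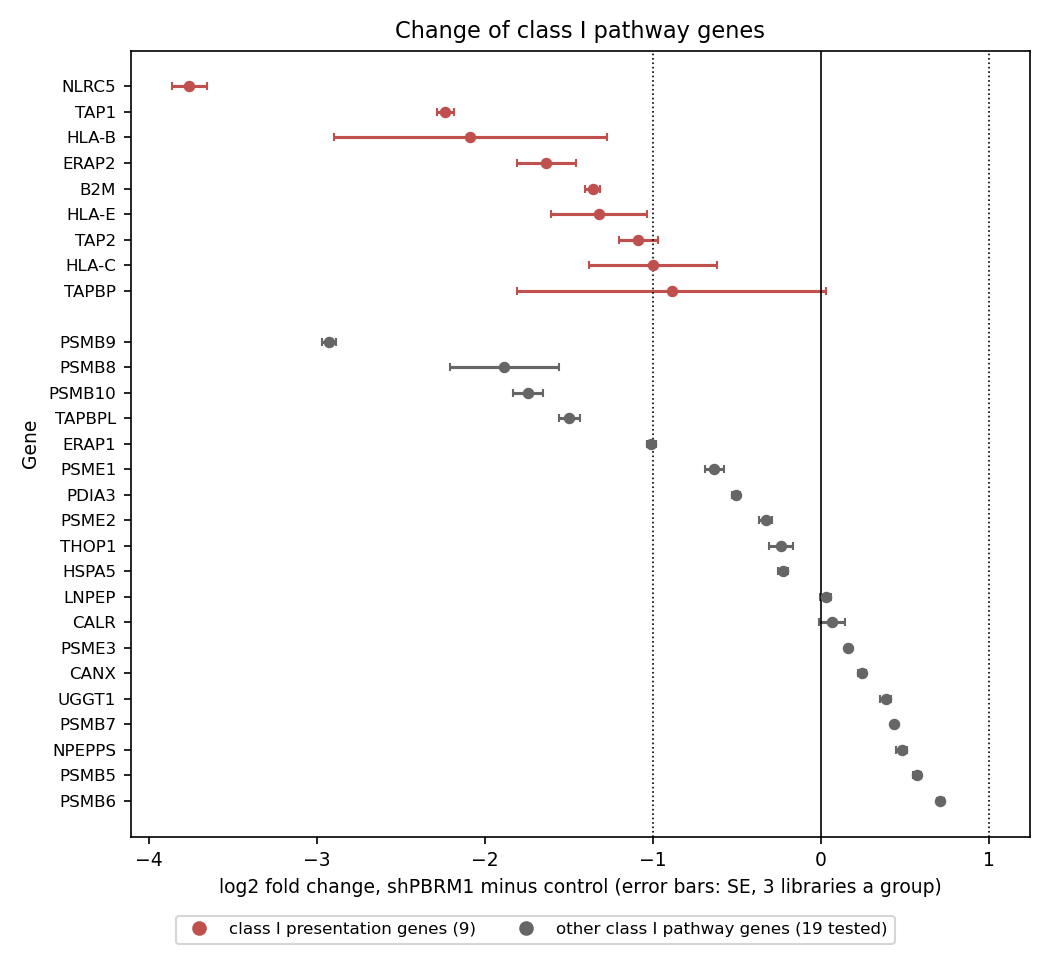
log2 fold change (shPBRM1 minus control) of the 9 class I presentation genes in red and of the 19 tested genes of the further class I list in grey, with SE bars from 3 libraries a group; the solid line marks no change and dotted lines a 2-fold change. NLRC5 is lowest at -3.76, the immunoproteasome subunits PSMB9, PSMB8 and PSMB10 lie at -2.93, -1.89 and -1.75, and their constitutive counterparts PSMB5, PSMB6 and PSMB7 lie between 0.43 and 0.71.

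Among 14 regulators of class I transcription, 8 were lower and 1 was higher at an adjusted p under 0.05, and 3 were lower by more than 2-fold. The same shares over all tested genes were 33.2%, 31.5% and 9.68%. The median log2 fold change of this list was -0.19. The 3 were the interferon signal transducers STAT2 and IRF9, and IRF1. Their log2 fold changes were -2.36, -1.88 and -1.60, each with no overlap between the groups. NLRC5 thus fell by more on the log2 scale than any of the 14, although that difference was not tested. NLRC5 has no DNA-binding activity of its own and works with the RFX complex. RFX5, RFXAP and RFXANK had log2 fold changes of -0.07, -0.19 and 0.12, with adjusted p of 0.103, 0.0546 and 0.109 (edgeR). CREB1 and NFYB did not pass the test either, at -0.07 and 0.00. ATF1, IRF2, RELA, NFKB1 and NFYC fell, with log2 fold changes of -0.49, -0.65, -0.38, -0.18 and -0.19, and NFYA rose by 0.21.

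Class I-like molecules share the fold of the heavy chains but mostly present no peptide to T cells. Of 12 such genes, 10 were tested, 8 were lower and 1 was higher at an adjusted p under 0.05, and 6 were lower by more than 2-fold. The same shares over all tested genes were 33.2%, 31.5% and 9.68%. The list median was -1.27. The NKG2D ligands MICB, RAET1G, ULBP3 and ULBP2 fell, with log2 fold changes of -1.999, -2.14, -1.35 and -1.19, as did ULBP1 (-0.89). RAET1G had 17, 26 and 30 counts in control and 7, 7 and 5 in shPBRM1 libraries. The lipid-presenting CD1D fell by 2.20 and the neonatal Fc receptor FCGRT by 1.41. MR1, which presents microbial metabolites, fell by 0.84, and HFE, which acts in iron uptake, rose by 0.21. MICA, which lies beside HLA-B, had levels of 18.5, 13.8 and 18.1 CPM in control and of 13.3, 12.3 and 24.8 CPM in shPBRM1 libraries and did not pass the test (log2 fold change 0.02, adjusted p = 0.913). RAET1E, with 25, 7 and 22 counts in control and 3, 0 and 2 in shPBRM1 libraries, and RAET1L did not pass the filter.

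The class II pathway presents peptides from outside the cell and is normally a feature of antigen-presenting cells. Of 14 class II genes, 5 were tested and 4 were lower by more than 2-fold, beside 9.68% of all tested genes. The list median was -2.07. CD74, the invariant chain, fell from 2.61 ± 0.539 to 0.534 ± 0.127 CPM (SD, n = 3). CIITA, the class II transactivator and a relative of NLRC5, fell from 3.97 ± 0.513 to 1.59 ± 0.173 CPM, a log2 fold change of -1.33 beside -3.76 for NLRC5. The protease CTSS and the peptide editor subunit HLA-DMA fell as well, with log2 fold changes of -2.08 and -2.07, HLA-DMA from 17, 19 and 29 counts to 2, 6 and 10 counts. HLA-DOB had 19, 22 and 4 counts in control and 13, 10 and 9 in shPBRM1 libraries and was not called. The other 9 genes, HLA-DRA, HLA-DRB1, HLA-DRB5, HLA-DPA1, HLA-DPB1, HLA-DQA1, HLA-DQB1, HLA-DMB and HLA-DOA, had at most 10 counts in any library and did not pass the filter.

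Tested genes within 100 kb of the 9 were also examined. B2M had 3 such neighbours, of which PATL2, 171 bases away, fell by 2.63 and TRIM69 by 1.29 on the log2 scale. TAP1 had 4 and TAP2 had 3, and those lower by more than 2-fold were PSMB9, PSMB8 and HLA-DMA. NLRC5 had 5, of which the cholesteryl ester transfer protein gene CETP fell from 18, 26 and 35 counts to 0, 2 and 0 counts and the stress response gene HERPUD1 fell by 1.05 on the log2 scale. ERAP2 had 3, of which ERAP1 fell by 1.01. Around TAPBP 13 neighbours were tested, of which 3 were lower, 6 were higher and 0 changed by more than 2-fold. Over all tested genes, 33.2% were lower and 31.5% higher, and by more than 2-fold 9.68% and 2.87%. HLA-E had 3 neighbours, HLA-B had 1 and HLA-C had 0, and none of these changed by more than 2-fold.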

How the data were processed

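RNA-seq of BT-549 cells was analyzed in 3 control and 3 shPBRM1 libraries, grouped and numbered by their sample titles. The submitters' processing notes name STAR 2.7.9a, featureCounts, DESeq2 1.24.0 and the genome build GRCh38.p7. The annotation, strand setting and treatment of reads with several matches are not given in the sources used here. The authors deposited raw read counts per gene symbol, without normalization. Of its 37887 rows, 14 show a date where a symbol belongs and 12608 hold no count. All value columns were used.

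Counts were normalized by TMM, filtered with filterByExpr (15450 genes) and tested with edgeR 4.0.16 in R 4.3.3 by the quasi-likelihood test, adjusted by Benjamini-Hochberg across the tested genes. Genes were called at an adjusted p under 0.05, with or without a fold change over 2. SEs come from each gene's own spread of log2 CPM with 2 counts added, which the edgeR p-values do not use alone. Ratios to B2M were compared by exact permutation tests and, with same-numbered libraries paired, by sign-flip tests (numpy 2.4.6). The exact interval of HLA-B was computed with scipy 1.17.1. Libraries of a group differed by more than sampling noise (chi-square over its degrees of freedom, 4.92 to 24.9). The floor of 3 counts per library was a chosen setting.

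The 9 genes and the lists of pathway and marker genes were chosen with earlier results of these data known. All 9 and PBRM1 are named, list genes past the limits or untested are named, as are the 5 most similar genes and the neighbours within 100 kb past the fold limit. Other list genes were named to complete the account. A few genes of the lists were left out and are not reported here. Positions and exon lengths are from GENCODE v29 (GRCh38) and promoter sequences from RefSeq.

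Alternatives were RLE size factors, library size only, DESeq2 1.42.0, no filter, a minimum mean of 50 counts, the replicate number as a block, leaving out each library, glmTreat, an adjusted p under 0.001 and, chosen after seeing the data, robust estimation of the spread. Same-numbered libraries deviated together (correlations of 0.734, 0.593 and 0.419 across 5622 genes). The numbers in the titles were therefore taken to pair them in the fit with the replicate block. The main fit, the SEs and the permutation tests did not use the pairing. Libraries with different numbers had correlations from -0.671 to 0.464, and control replicate 2 with shPBRM1 replicate 3, at 0.464, exceeded the third same-number pair.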

Additional observations from a re-analysis of the deposited data

How the results depend on the processing

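The calls of PBRM1, HLA-E, B2M, TAP1, TAP2, NLRC5 and ERAP2 kept their direction and stayed past the adjusted p of 0.05 under each of 13 alternatives. The log2 fold change of HLA-B ranged from -3.58 to -1.30 when single libraries were left out and lost its call without control replicate 3, and HLA-B could not be tested at a mean of at least 50 counts. That of HLA-C was -0.999 with an adjusted p of 0.0801 under robust estimation of the spread, added after seeing the data. TAPBP ranged from -1.26 to 0.32 when single libraries were left out, with the sign reversed without control replicate 3, and became significant with library size only (-0.93) and with no filter on low counts (-0.89). The causes were not tested. The number of the 9 genes lower by more than 2-fold was 7 and ranged from 5 (glmTreat) to 9, and from 6 to 9 with single libraries left out. With the replicate block it was 8, since HLA-C passed the fold limit at -1.02. The block changed no other call, and gave -3.77 for NLRC5 and -0.57 for TAPBP. The number of class II genes lower by more than 2-fold was 2 in place of 4 both at a mean of at least 50 counts and with glmTreat. The ratio of HLA-E to B2M changed sign without control replicate 3 (-0.16) and without shPBRM1 replicate 2 (-0.10), ranging from -0.16 to 0.21 with libraries left out. Library size only moved the median of all tested genes to -0.06. Depth limits HLA-B, HLA-F and most class II genes, with few counts per library.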

Other observations

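A within-group SD of log2 CPM over 0.3, as in HLA-C, HLA-E and TAPBP, was also seen in some other genes in or near the MHC. Genes whose mean was 50 counts or more were divided into 437 windows of 5 Mb that held at least 10 of them. The window from 30000001 to 35000000 of chromosome 6, with 76 genes, had the highest median within-group SD of log2 CPM, 0.135, beside 0.129 for the next window and 0.0694 over all 12373 genes. In that window 12 genes, or 15.8%, had a within-group SD over 0.3, beside 3.27% of all genes. HLA-C, HLA-E and TAPBP are among the 12 and count toward the median and the share of the window. The share was higher in some windows with fewer genes, such as 20% of 15 genes from 25000001 to 30000000 of chromosome 7. The 12 genes of the chromosome 6 window were DAXX, GNL1, GPANK1, HCG18, HLA-C, HLA-E, MICA, NFKBIL1, PPP1R18, PSMB8, TAPBP and TUBB. These genes differ widely in function, and outside the 9 genes the next largest SDs were those of NFKBIL1 and PPP1R18. NFKBIL1 had 80, 16 and 31 counts in control and 113, 75 and 133 counts in shPBRM1 libraries. PPP1R18 had 472, 188 and 216 counts in control and 180, 102 and 140 counts in shPBRM1 libraries. The log2 fold changes in the chromosome 6 window had a median of -0.06. Of its 76 genes, 8 were lower and 2 higher by more than 2-fold, beside 9.68% and 2.87% of all tested genes. The window was singled out after its values were seen.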
